A study of Homo sapiens with 10 samples.

Results

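Histone lysine methyltransferases, which add methyl groups to lysines of the histone tails, and histone lysine demethylases, which take them off, were compared between PC-3 clones with and without added CENPU. Members were the protein-coding genes whose current symbol starts with KMT, KDM, SETD, NSD and a digit, EHMT, EZH, SUV39H or SMYD. The named rows of the array table held 46 such genes out of 14884 genes in all, 27 with a SET-type methyltransferase name and 19 with a demethylase (KDM) name. A further 7 enzymes of these families, KMT2A, KMT2E, SETD1B, SETD4, SETDB1, SETDB2 and KDM4F, were not analysed here because no row carried their name. The name rule also matched 3 long non-coding RNA genes, which encode no enzyme and are described separately.

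PC-3 is an established human prostate cancer line. Every clone had received a lentiviral vector and selection with blasticidin (written blastocydin in the labels). The vector carried CENPU, a centromere protein gene, in 5 clones (numbers 1, 4, 5, 7 and 13) and was empty in 5 control clones (numbers 1 to 5), and each sample was 1 clonal isolate on 1 Affymetrix array. A difference between groups therefore includes the spread between single-cell clones. The sources used here do not give the promoter that drives CENPU. CENPU itself was 8.44-fold higher in CENPU clones (9.34 ± 0.43 against 6.26 ± 0.29, log2 units, SD, n = 5 each), and its groups did not overlap. Of the PC-3 markers with a row, the epithelial genes KRT18, KRT19 and HOXB13 averaged 10.72, 10.70 and 11.07 log2 units over the 10 clones. KRT8 and EPCAM averaged 6.75 and 6.43, while KLK3 and KLK2, androgen-regulated genes that are low or absent in PC-3, averaged 5.59 each. ALB and PECAM1, markers of other cell types, averaged 4.30 and 5.24. In such bulk RNA, fewer expressing cells and less RNA per cell cannot be told apart.

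Methylation of histone lysines marks chromatin states. Methyl groups on lysine 4 of histone H3 (H3K4) lie at promoters and enhancers and are written by large complexes of the COMPASS type. H3K9 and H3K27 methylation mark silent chromatin, H3K36 methylation lies along transcribed gene bodies, and H4K20 methylation serves genome maintenance and chromosome compaction. Most writers share the SET catalytic domain, whereas erasers belong either to the amine oxidases (KDM1) or to the iron-dependent Jumonji (JmjC) enzymes. Centromeres sit in chromatin with its own pattern of these marks, and CENPU is part of the protein network bound there.

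Of the 4 H3K4 methyltransferase genes with a row, 3 fell and 1 did not pass. Of the 4 KDM5 genes, which encode H3K4 demethylases, 2 rose and 2 did not pass. Among all genes, 10.1% passed in either direction. The H3K4 writers KMT2A and SETD1B had no row. KDM1A and KDM1B, amine oxidases that also act on H3K4, differed by 0.30 and 0.44 and did not pass. KMT2B, KMT2D and SETD1A were lower in CENPU clones, by 1.42-fold, 1.39-fold and 1.24-fold. KDM5A and KDM5B were higher, by 2.04-fold and 2.48-fold. The writer KMT2C had a positive log2 difference of 0.68, and the erasers KDM5C and KDM5D differed from the controls by 0.05 or less; none of these 3 passed. For the 5 genes of both classes that passed, the 250 bases before the gene start are shown. They are RefSeq sequences of assembly GRCh38.p14, written 5′ to 3′ on the strand of the gene, and capitals mark the GC box GGGCGG or its reverse complement CCGCCC.

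KMT2B, plus strand, chr19:35717753-35718002: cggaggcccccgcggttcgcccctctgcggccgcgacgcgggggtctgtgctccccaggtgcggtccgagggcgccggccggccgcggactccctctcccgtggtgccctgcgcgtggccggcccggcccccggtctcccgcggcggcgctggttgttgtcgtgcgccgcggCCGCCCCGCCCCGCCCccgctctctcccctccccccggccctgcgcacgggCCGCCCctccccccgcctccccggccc
KMT2D, minus strand, chr12:49060795-49061044: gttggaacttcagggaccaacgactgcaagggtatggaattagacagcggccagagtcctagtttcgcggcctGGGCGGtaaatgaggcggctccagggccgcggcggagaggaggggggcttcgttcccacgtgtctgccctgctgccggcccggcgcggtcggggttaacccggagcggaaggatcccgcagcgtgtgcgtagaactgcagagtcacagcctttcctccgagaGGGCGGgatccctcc
SETD1A, plus strand, chr16:30957504-30957753: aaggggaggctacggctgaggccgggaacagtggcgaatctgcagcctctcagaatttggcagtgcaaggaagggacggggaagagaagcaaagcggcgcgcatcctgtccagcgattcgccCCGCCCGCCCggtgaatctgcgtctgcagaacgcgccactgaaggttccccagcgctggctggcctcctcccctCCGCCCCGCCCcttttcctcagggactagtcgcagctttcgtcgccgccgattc
KDM5A, minus strand, chr12:389321-389570: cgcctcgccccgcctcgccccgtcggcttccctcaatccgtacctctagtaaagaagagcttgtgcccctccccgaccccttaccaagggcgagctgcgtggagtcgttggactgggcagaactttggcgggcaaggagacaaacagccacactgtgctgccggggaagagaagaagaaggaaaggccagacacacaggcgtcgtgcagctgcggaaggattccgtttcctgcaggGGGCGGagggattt
KDM5B, minus strand, chr1:202808422-202808671: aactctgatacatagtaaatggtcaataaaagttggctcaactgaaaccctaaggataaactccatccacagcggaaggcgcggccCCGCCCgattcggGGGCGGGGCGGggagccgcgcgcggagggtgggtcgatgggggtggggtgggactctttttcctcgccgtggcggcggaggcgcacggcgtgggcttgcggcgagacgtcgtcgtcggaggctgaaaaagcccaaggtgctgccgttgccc

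All 5 windows were rich in G and C. KMT2B had 84.4% G and C and 40 CpG dinucleotides, KMT2D 65.6% and 23, SETD1A 65.2% and 23, KDM5A 62.0% and 18, and KDM5B 64.0% and 27. The GC box, bound by factors of the SP family, was matched on both strands 4 times in KMT2B and SETD1A, 2 times in KMT2D, 1 time in KDM5A and 3 times in KDM5B, with overlapping matches counted. Windows of this length at the gene start were found for 38 members, of which 76.3% held a GC box, against 60.5% of 8409 protein-coding genes. The CCAAT box (or ATTGG) was found in 28.9% of member windows and 35.4% of all, and the ETS core CCGGAA (or TTCCGG) in 15.8% and 20.9%, and neither was present in the 5 windows printed. The median G and C content was 62.0% in the 5 windows of members that rose, 65.6% in the 5 of members that fell and 63.2% over all protein-coding genes. These matches describe letters of the windows, not binding.

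Across the 46 members, 6 rose and 5 fell in CENPU clones, and 35 did not pass. A gene passed at a limma adjusted p under 0.05 with Benjamini-Hochberg adjustment over all named rows. This is 23.9% of the members, where 10.1% of all genes and 11.7% of protein-coding genes passed. By direction, 13.0% of the members were higher and 10.9% lower. Among all genes 5.31% were higher and 4.79% lower, and among protein-coding genes 6.23% and 5.43%. CENPU and control clones had no overlapping values in 10 members, or 21.7%, against 9.73% of all genes and 11.1% of protein-coding genes. Of the methyltransferase genes 3 rose, 5 fell and 19 missed the threshold, and their differences had a median of 0.18 on the log2 scale. Of the demethylase genes 3 rose, 0 fell in limma and 16 missed the threshold (1 was lower at an unadjusted p under 0.05), with a median of 0.30, against -0.02 over all genes. KDM6B fell too after quantile normalization, at -0.38 (limma adjusted p = 0.0230). Whether writers and erasers differed from each other was not tested.

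**Figure D1:**
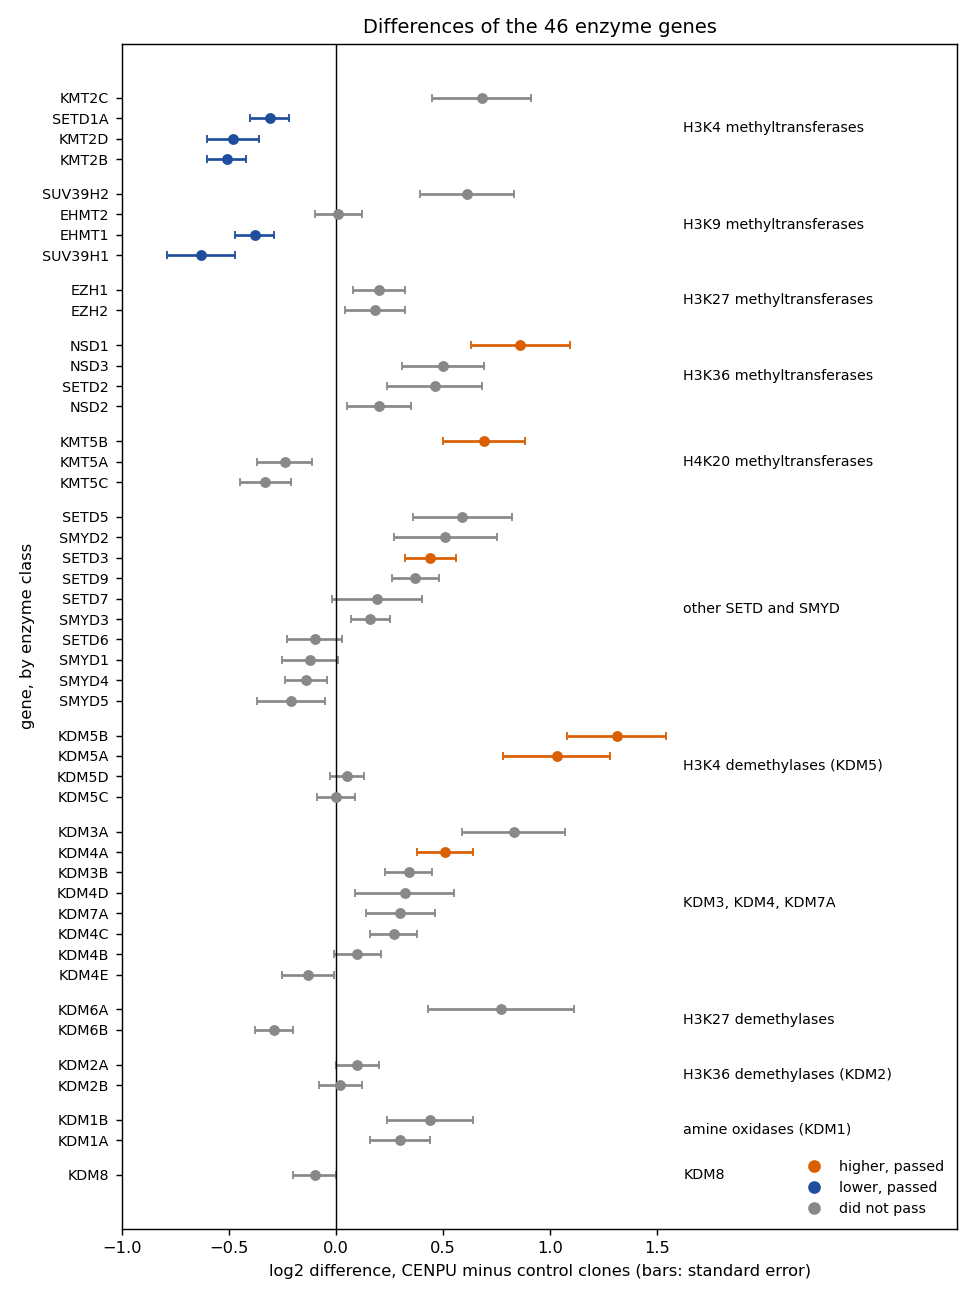
Log2 difference between CENPU and control clones (horizontal axis, log2 units) for each of the 46 genes, grouped by enzyme class, with 5 clones in each group; points are group differences and bars are standard errors from limma. Blue points mark the 5 genes that fell, 3 of them H3K4 methyltransferases, and orange points the 6 that rose, led by KDM5B at 1.31 and KDM5A at 1.03.

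These counts depended on which clones were included, and the share of all genes called moved with them. Without CENPU 1, 16 members (34.8%) were higher and 5 (10.9%) lower, against 9.83% and 6.77% of all genes. Without CENPU 4, 8 were higher and 5 lower (all genes 7.73% and 5.53%). Without control 1, 4 were higher and 4 lower (4.94% and 4.62%). In the 7 other fits that left out a clone, 1 or 2 members were higher, which is 2.17% or 4.35% of the members. Without CENPU 5 the counts were 1 higher and 1 lower (all genes 3.02% and 2.79%), without CENPU 7 they were 1 and 2 (2.22% and 2.40%), and without CENPU 13 they were 1 and 3 (2.77% and 2.61%). Leaving out control 2 gave 1 and 2 (2.30% and 2.31%), control 3 gave 2 and 2 (2.97% and 2.54%), control 4 gave 1 and 2 (2.00% and 2.12%), and control 5 gave 1 and 1 (2.9% and 2.71%). In these 7 fits the share of members called higher was thus near that of all genes. Centring each array on its median gave 2 members higher, or 4.35% against 3.93% of all genes, and 5 lower, or 10.9% against 5.09%. Quantile normalization gave 5 higher and 6 lower (all genes 5.07% and 6.40%), and array weights gave 11 and 6 (8.75% and 6.37%). KMT2B and KDM5B passed in all 10 fits that left out 1 clone, with limma adjusted p of at most 0.0226 and 0.0236. The other 9 lost their call in 4 to 9 of those fits, while their direction stayed the same in each. SETD1A lost it in 9, KDM4A, NSD1 and SETD3 in 8, and KMT5B in 7. KDM5A and SUV39H1 lost it in 6, EHMT1 in 5 and KMT2D in 4.

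KMT2B, the writer of H3K4 methylation at many CpG-rich promoters, read 7.36, 7.53, 7.39, 7.29 and 7.51 log2 units in CENPU clones 1, 4, 5, 7 and 13, and 7.80, 7.99, 7.96, 7.84 and 8.04 in control clones 1 to 5. All CENPU clones lay below all controls. KMT2B thus fell by 0.51 on the log2 scale (standard error 0.09, limma adjusted p = 0.00649). KMT2D, which with KMT2C writes H3K4 monomethylation at enhancers, read 7.97, 7.77, 7.88, 7.88 and 8.18 in CENPU clones and 8.49, 8.17, 8.58, 8.24 and 8.58 in controls. CENPU 13 overlapped with control 2, and the difference was -0.48 (standard error 0.12, limma adjusted p = 0.0260). SETD1A, the catalytic subunit of a complex that writes H3K4 trimethylation at promoters, read 7.53, 7.37, 7.34, 7.38 and 7.47 against 7.70, 7.85, 7.81, 7.57 and 7.68. Its groups did not overlap, with CENPU 1 and control 4 the nearest clones, and the difference of -0.31 (standard error 0.09) had a limma adjusted p of 0.0446. This fall lost its call in 9 of the fits that left out 1 clone. KMT2C went the other way. It read 6.54, 6.75, 7.15, 7.44 and 7.95 in CENPU clones and 6.56, 6.20, 6.78, 6.39 and 6.51 in controls, so CENPU 1 and 4 lay within the control range, and its difference of 0.68 (standard error 0.23) did not pass (limma adjusted p = 0.0875).

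Among the H3K4 erasers, KDM5B, which removes trimethyl and dimethyl marks, had the largest difference of any member. It read 7.99, 8.14, 8.56, 8.75 and 9.04 in CENPU clones and 7.48, 6.65, 7.51, 6.92 and 7.35 in controls. The groups were separate, with a log2 difference of 1.31 (standard error 0.23, limma adjusted p = 0.00665). KDM5A, its close relative and a binding partner of the retinoblastoma protein, read 5.99, 6.22, 6.67, 7.13 and 7.29 against 5.75, 5.07, 5.90, 5.75 and 5.71. CENPU 1 was only slightly above control 3, whereas control 2 was far below the other controls. The difference was 1.03 (standard error 0.25, limma adjusted p = 0.0268). KDM5C, the X-linked member, averaged 6.70 ± 0.08 and 6.71 ± 0.12 (SD, n = 5 each), and KDM5D, the Y-linked member, had a dim row and a difference of 0.05. Neither passed.

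**Figure D2:**
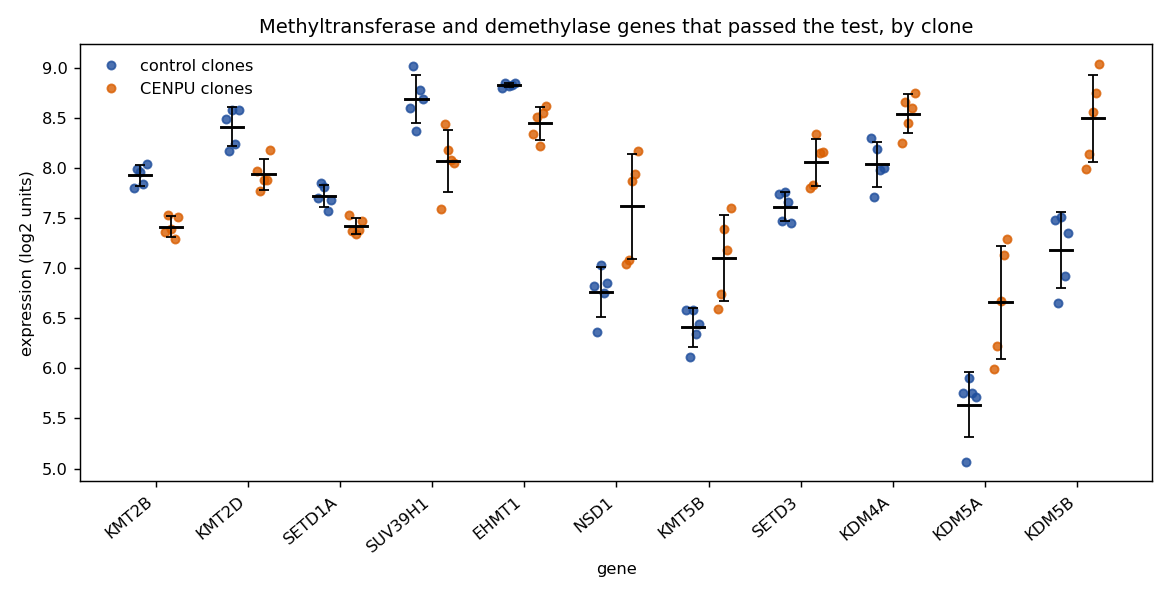
Expression (log2 units) of the 11 genes that passed, with 1 point per clone, blue for 5 control clones and orange for 5 CENPU clones; horizontal bars are group means and error bars are SD. KMT2B and KDM5B have separate groups, with a highest CENPU clone of 7.53 for KMT2B and a lowest of 7.99 for KDM5B, and the CENPU clones spread further than the controls for NSD1, KMT5B and KDM5A.

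Of the H3K9 writers, SUV39H1 and EHMT1 fell. SUV39H1, which places the last methyl groups on H3K9 in pericentromeric heterochromatin, read 7.59, 8.44, 8.18, 8.08 and 8.05 in CENPU clones and 8.60, 9.02, 8.37, 8.78 and 8.69 in controls. CENPU 4 lay above control 3, and the difference was -0.63 (standard error 0.16, limma adjusted p = 0.0314). A second row named SUV39H1 was dim, with a mean of 4.29, and differed by -0.03; with both rows averaged, the gene differed by -0.33 and did not pass (limma adjusted p = 0.192). EHMT1, which dimethylates H3K9 as a dimer with EHMT2, read 8.34, 8.51, 8.22, 8.55 and 8.62 against 8.80, 8.85, 8.82, 8.83 and 8.85. Its control clones were nearly identical, the groups did not overlap, and the difference was -0.38 (standard error 0.09, limma adjusted p = 0.0264). Its partner EHMT2 averaged 9.11 and 9.09, a difference of 0.01. SUV39H2, the paralogue of SUV39H1, had a dim row and a difference of 0.61 that did not pass (limma adjusted p = 0.105).

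All 4 H3K36 writers had positive differences, of which 1 passed. Among all genes 6984 of 14884 were positive, and 10.1% passed. The 4 writers are long genes, spanning 110.8 to 168.4 kb. Without control 2, CENPU 7 and CENPU 13 all 4 stayed positive, but their median fell from 0.48 to 0.14 and 0 passed. That fit, with fewer clones, called 3.16% of all genes. NSD1, which dimethylates H3K36 in and between genes, read 7.04, 7.08, 7.87, 7.94 and 8.17 in CENPU clones and 6.82, 6.36, 7.03, 6.75 and 6.85 in controls. The groups just missed each other, since CENPU 1 and control 3 were 7.04 and 7.03, and the difference was 0.86 (standard error 0.23, limma adjusted p = 0.0350). NSD3 differed by 0.50, SETD2, the enzyme of the trimethyl mark on H3K36, by 0.46 and NSD2 by 0.20. None of these 3 passed (limma adjusted p from 0.121 to 0.411), and a second, dim row of NSD3 differed by 0.07. In NSD3 and SETD2, as in NSD1, CENPU 5, 7 and 13 were above every control and CENPU 1 was not clearly above them.

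KMT5B, which extends the methyl mark on H4K20 after KMT5A, read 6.59, 6.74, 7.39, 7.18 and 7.60 in CENPU clones and 6.58, 6.11, 6.58, 6.34 and 6.44 in controls. CENPU 1 lay just above the highest controls, and the difference was 0.69 (standard error 0.19, limma adjusted p = 0.0392). The other H4K20 writers had differences of the opposite sign. KMT5A, which adds the first methyl group and peaks in mitosis, differed by -0.24, and KMT5C, the paralogue of KMT5B, by -0.33, and neither passed. The H3K27 writers EZH1 and EZH2, alternative catalytic subunits of the Polycomb complex PRC2, differed by 0.20 and 0.18 and did not pass. EZH1 read 6.82, 7.46, 7.09, 7.23 and 7.19 in CENPU clones against 7.00, 6.84, 6.98, 6.86 and 7.09 in controls, so its groups overlapped, and EZH2 averaged 7.61 ± 0.25 against 7.43 ± 0.23 (SD, n = 5 each).

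The other SETD and SMYD genes include enzymes whose main known substrates are not histones. SETD3, which methylates a histidine of actin, was the 1 of these 10 genes that rose, and 9 did not pass. Thus 10% of them passed, near the 10.1% of all genes, of which 5.31% were higher. SETD3 read 7.80, 7.83, 8.34, 8.15 and 8.16 in CENPU clones and 7.74, 7.47, 7.76, 7.66 and 7.45 in controls. Its groups were separate, with a difference of 0.44 (standard error 0.12, limma adjusted p = 0.0439). SETD5 read 7.56, 7.98, 8.45, 8.47 and 8.59 against 7.85, 6.92, 7.80, 7.67 and 7.84, a difference of 0.59 that did not pass (limma adjusted p = 0.118), with CENPU 1 inside the control range. SETD9, a gene with a dim row, had separate groups and a difference of 0.37 that narrowly did not pass (limma adjusted p = 0.0572). SMYD2 and SMYD3 differed by 0.51 and 0.16, SETD7 by 0.19, SMYD4 by -0.14, SMYD5 by -0.21, SETD6 by -0.10, and SMYD1, a muscle gene with a dim row, by -0.12. None of those 7 passed.

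Of the 8 genes in the KDM3, KDM4 and KDM7A class, which act mainly on H3K9, 7 had positive differences and 1 passed. Among all genes 6984 of 14884 were positive, and 10.1% passed. Without control 2, CENPU 7 and CENPU 13, 7 of the 8 stayed positive, but their median fell from 0.31 to 0.17 and 0 passed. That fit, with fewer clones, called 3.16% of all genes. KDM4A, which removes trimethyl marks from H3K9 and H3K36, read 8.25, 8.66, 8.45, 8.60 and 8.75 in CENPU clones and 8.30, 7.71, 8.19, 7.98 and 8.00 in controls. CENPU 1 lay below control 1, and the difference was 0.51 (standard error 0.13, limma adjusted p = 0.0331). KDM3A, an H3K9 eraser induced by low oxygen, had the larger difference of 0.83 but missed the threshold (limma adjusted p = 0.0525). It read 6.21, 6.18, 7.07, 7.32 and 7.35 against 6.08, 5.59, 6.19, 6.09 and 6.04, so CENPU 4 fell within the control range while CENPU 5, 7 and 13 stood well above it. KDM3B differed by 0.34, KDM4D by 0.32, KDM4C by 0.27 and KDM4B by 0.10. KDM7A and KDM4E, both with dim rows, differed by 0.30 and -0.13.

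The H3K27 erasers KDM6A and KDM6B had differences of opposite sign, and neither passed. KDM6A, also a subunit of the KMT2C and KMT2D complexes, read 5.93, 6.62, 6.90, 7.87 and 7.72 in CENPU clones against 6.68, 5.65, 6.45, 6.25 and 6.16, the widest spread within the CENPU group of any member (SD 0.80, n = 5), with a difference of 0.77 (limma adjusted p = 0.163). KDM6B, induced in inflammatory signalling, read 7.43, 7.64, 7.35, 7.49 and 7.61 against 7.72, 7.78, 7.98, 7.73 and 7.77. Its groups did not overlap, and its difference of -0.29 had a limma adjusted p of 0.0647. The amine oxidases KDM1A and KDM1B, which remove mono- and dimethyl marks from H3K4, differed by 0.30 and 0.44 and did not pass. KDM1B read 7.33, 7.77, 7.89, 8.24 and 8.40 against 7.62, 6.99, 7.77, 7.51 and 7.57, with CENPU 7 and 13 the highest. The H3K36 erasers KDM2A and KDM2B differed by 0.10 and 0.02. KDM2A read 8.93, 8.76, 8.72, 8.95 and 9.10 against 8.96, 8.60, 8.84, 8.82 and 8.76, and the groups overlapped, with CENPU 13 above every control and control 2 below every CENPU clone. KDM8, a JmjC protein whose histone activity is debated, read 6.60, 6.62, 6.60, 6.47 and 6.31 against 6.72, 6.66, 6.41, 6.55 and 6.75, a difference of -0.10.

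Rows of 6 members, SUV39H2, SETD9, SMYD1, KDM4E, KDM5D and KDM7A, had means under 5 log2 units, and background signal can understate a difference in so dim a row. This limit does not mark every row near background, since KLK3 and KLK2, low or absent in PC-3, averaged 5.59. KDM5A in the controls (5.64) and KDM4C over all clones (5.48) were near that level. None of the 6 dim members passed, so the counts among the 40 brighter members were necessarily the same 6 and 5. When the fit itself left out dim rows, KDM3A also passed (0.83, limma adjusted p = 0.0416). The 3 non-coding genes did not pass. KDM4A-AS1, antisense to KDM4A, had separate groups with a difference of -0.37 (limma adjusted p = 0.0573), opposite in sign to KDM4A. KDM7A-DT and KMT2E-AS1 differed by -0.13 and -0.02.

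**Figure D3:**
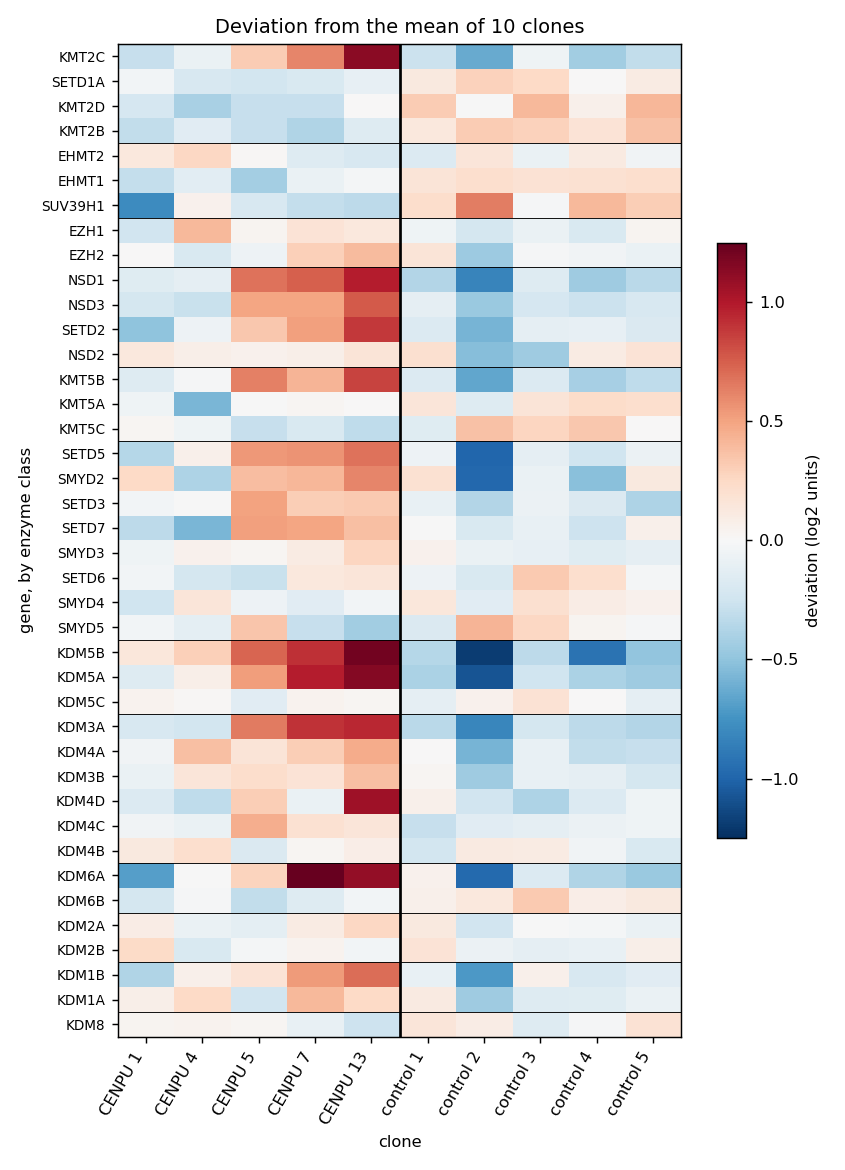
Deviation of each clone from the mean of the 10 clones (colour, log2 units, red above and blue below) for the 40 members with means of at least 5, by enzyme class (lines) and clone (columns). Many rows share one pattern, high in CENPU 5, 7 and 13 and lowest in control 2, whereas KMT2B, SETD1A and EHMT1 are low across the CENPU clones.

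The clones of the CENPU group were not alike in the members that rose. The median deviation of these 6 genes from the mean of all clones was -0.10 in CENPU 1 and 0.03 in CENPU 4, but 0.58 in both CENPU 5 and CENPU 7, and it reached 0.91 in CENPU 13. In controls it was -0.26, -0.74, -0.17, -0.41 and -0.36 in clones 1 to 5. The 5 members that fell did not follow that order. Their median deviation was -0.30, -0.14, -0.28, -0.29 and -0.10 in CENPU clones 1, 4, 5, 7 and 13, and between 0.16 and 0.31 in the controls, so every CENPU clone was below every control. Both groups of genes were picked by the same test, and these medians describe their clones without testing them.

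Genomic span, the length of a gene on the chromosome from RefSeq, moved with the differences. The 6 members that rose spanned 55.4 to 168 kb, with a median of 86.3 kb. The 5 that fell had a median of 26.9 kb, and 4 of them spanned 13.5 to 41.8 kb. EHMT1 was the exception at 217 kb. Spearman's correlation of span with log2 difference was 0.503 across the 46 members and 0.327 across 11916 protein-coding genes, all from the same arrays. The median member spanned 57.4 kb and the median protein-coding gene 26.7 kb. The longest members were not those that differed most, since SMYD3 (758 kb) differed by 0.16 and KDM4C (455 kb) by 0.27.

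**Figure D4:**
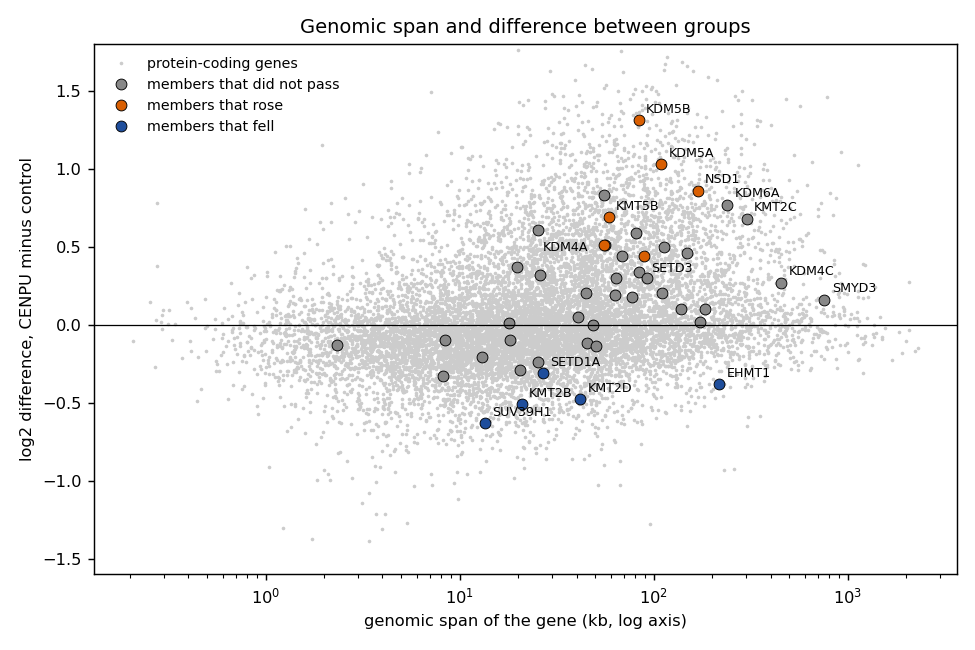
Genomic span (kb, log axis) against log2 difference between CENPU and control clones, for protein-coding genes (grey dots) and the 46 members (circles; orange rose, blue fell, grey did not pass); 11 protein-coding genes beyond the axis limits of -1.6 and 1.8 are not shown. The members that rose lie at 55.4 kb or more, and the members that fell lie at 41.8 kb or less apart from EHMT1 at 217 kb.

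Across protein-coding genes, the correlation of span with a clone's own deviations ran from -0.160 in CENPU 1 to 0.360 in CENPU 13, and from -0.355 in control 2 to -0.0934 in control 1. With this trend subtracted from each array by a lowess curve, 6 members were higher and 5 lower, against 9.80% of all genes called in that fit. KDM5B then differed by 1.20, KDM5A by 0.90, KMT2B by -0.49 and KMT2D by -0.53, and all 4 passed (limma adjusted p from 0.00526 to 0.0261). SETD3 no longer passed (0.33, limma adjusted p = 0.0757), and SETD9 did (0.40, limma adjusted p = 0.0474). When control 2, CENPU 7 and CENPU 13, which had the most extreme correlations with span, were left out, KDM5B (0.91), KMT2B (-0.48), KMT2D (-0.60) and EHMT1 (-0.47) passed, with limma adjusted p from 0.0265 to 0.0444, in a fit that called 3.16% of all genes. The 7 others differed by 0.52 (KDM5A), 0.47 (NSD1), 0.42 (KMT5B), 0.34 (SETD3), 0.33 (KDM4A), -0.28 (SETD1A) and -0.54 (SUV39H1) and did not pass (limma adjusted p from 0.109 to 0.274). The falls of KMT2B, KMT2D and EHMT1 were about as large without these clones. The rises of KDM5A, KMT5B and NSD1 shrank from 1.03, 0.69 and 0.86 to 0.52, 0.42 and 0.47. In KDM5A, KMT5B and NSD1, CENPU 7 and 13 lay above the CENPU mean and control 2 below the control mean. Leaving these clones out had to shrink such rises, so the contrast with the falls is no test of either.

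Subunits and readers that work with these enzymes were counted in the same fit, in which 5.31% of all genes were higher and 4.79% lower. In the COMPASS list, 1 of 14 measured genes rose, 2 fell and 11 did not pass, with a median of 0.30. Thus 21.4% of the list passed, where 10.1% of all genes did. WDR5, the scaffold shared by all H3K4 methyltransferase complexes, fell from 8.18 ± 0.08 in controls to 7.39 ± 0.12 in CENPU clones (SD, n = 5 each), by 0.79 on the log2 scale (standard error 0.09, limma adjusted p = 0.00154), with separate groups. CXXC1, the CpG-binding subunit of the SETD1A complex, fell by 0.64, and BOD1L1, which associates with SETD1A, rose by 0.90. BOD1L1 averaged only 4.59 in controls, below the 5.59 of KLK3 and KLK2, so its size of change is limited by background signal. RBBP5 and DPY30, shared core subunits, differed by 0.52 and 0.49 and did not pass. Without control 2, CENPU 7 and CENPU 13, WDR5 differed by -0.88 (limma adjusted p = 0.00577), and CXXC1 (-0.56) and BOD1L1 (0.46) did not pass. That fit called 1.40% of all genes higher and 1.75% lower.

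Of 9 measured PRC2 subunits, PHF19, a reader of H3K36 methylation, fell by 0.48, and 8 did not pass, SUZ12 (0.75) among them. Among 13 measured partners and readers of H3K9 methylation, 3 rose, 1 fell and 9 did not pass. The PRC2 and H3K9 lists thus had 11.1% and 30.8% of genes passing, against 10.1% of all genes. CBX5, the heterochromatin protein HP1 alpha, rose by 0.85, the HUSH complex gene PPHLN1 by 0.60 and the remodeller ATRX by 1.30, while DAXX, the partner of ATRX in histone H3.3 deposition, fell by 0.29. Of 9 measured CoREST genes, which encode the complex of KDM1A, 2 rose, 0 fell and 7 did not pass, so 22.2% passed. The scaffold genes RCOR1 and RCOR3 rose, by 0.63 and 0.58. In controls RCOR3 averaged 5.15 and ATRX 5.30, below the 5.59 of KLK3 and KLK2 and so near background. HDAC1 (0.30) and HDAC2 (0.54) were among those that did not pass. PHF19, CBX5, PPHLN1, ATRX, DAXX, RCOR1 and RCOR3 did not pass without control 2, CENPU 7 and CENPU 13 (limma adjusted p from 0.128 to 0.207). That fit called 3.16% of all genes. The differences of PHF19 (-0.46) and DAXX (-0.27) were then about as large as before. CBX5 (0.47), PPHLN1 (0.41), ATRX (0.86), RCOR1 (0.36) and RCOR3 (0.38) had smaller ones. In each gene with a smaller difference, CENPU 7 and 13 lay above the CENPU mean and control 2 below the control mean. Leaving these clones out had to shrink those rises.

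Other JmjC genes outside the name rule went both ways, with 1 higher, 3 lower and 6 not passing of 10 measured. Thus 40% of this list passed, where 10.1% of all genes did. JMJD1C, a relative of KDM3A, rose by 1.31. JMJD6, PHF2 and RIOX1 fell, by 0.54, 0.60 and 0.48, each with separate groups. Of these, JMJD6 (-0.66) and PHF2 (-0.80) also passed without control 2, CENPU 7 and CENPU 13, whereas RIOX1 (-0.39) and JMJD1C (0.63) did not. Of 11 other SET and PRDM genes, PRDM8 fell by 0.98, or by 1.49 without these 3 clones, and 10 did not pass. In that list 9.09% passed, near the 10.1% of all genes.

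Neighbouring families of histone-modifying enzymes were counted beside the members. Of 11 measured lysine acetyltransferase genes 4 rose, 0 fell and 7 did not pass. Thus 36.4% were higher, against 5.31% of all genes. After median centring 9.09% of them were higher, against 3.93% of all genes. The coactivators KAT2B and EP300 rose by 1.21 and 0.75, KAT7 by 0.57 and KAT14 by 0.52. KAT2B averaged 5.55 in controls, near the 5.59 of KLK3 and KLK2. None of these 4 passed without control 2, CENPU 7 and CENPU 13 (limma adjusted p from 0.0634 to 0.30), in a fit that called 3.16% of all genes. None of 18 deacetylase genes passed in limma, where 10.1% of all genes did; at an unadjusted p under 0.05, 2 were higher and 4 lower, and their median difference was -0.02. Of 9 arginine methyltransferase genes PRMT7 fell by 0.69 (-0.51 without the 3 clones, limma adjusted p = 0.0444) and 8 did not pass. That is 11.1% passing, near the 10.1% of all genes. No difference between the members and these families was tested.

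**Figure D5:**
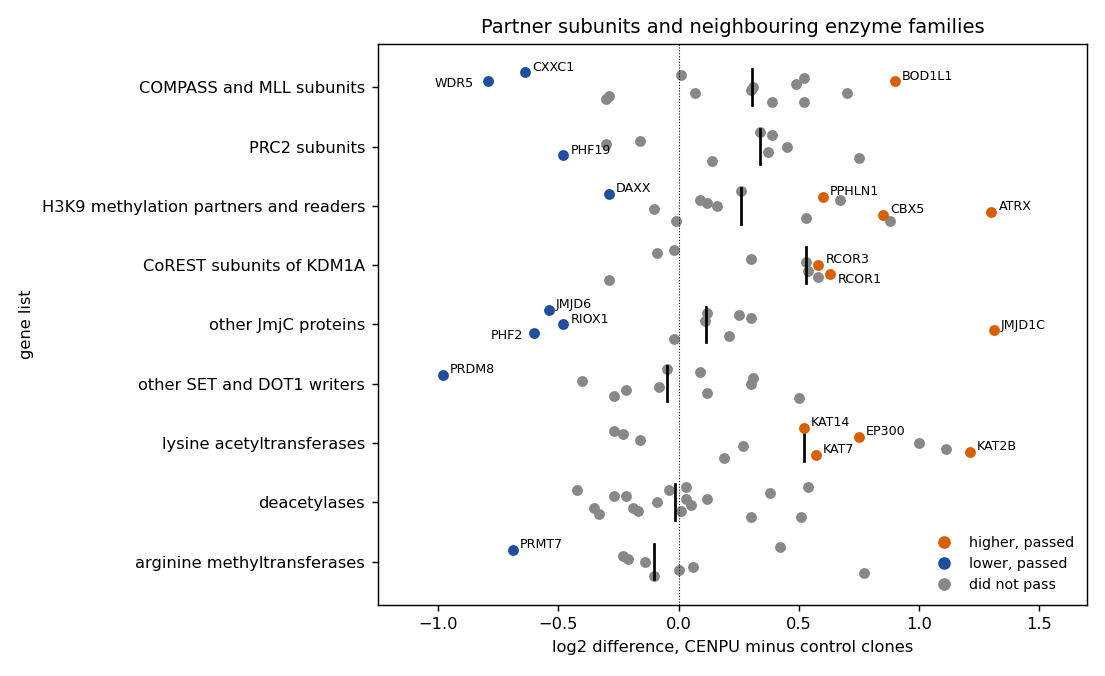
Log2 difference between CENPU and control clones (horizontal axis) for each measured gene of 9 lists of partner subunits and neighbouring enzyme families; orange and blue points rose and fell, grey points did not pass, and vertical black bars are list medians. WDR5 at -0.79 and CXXC1 at -0.64 are the lowest points of the COMPASS list, whose median is 0.30.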

How the data were processed

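RNA of 10 PC-3 clones was biotin-labelled and hybridised to 1-colour arrays. The authors deposited log2 values made with Partek and RMA (versions not stated), per the submitters' processing notes; the log2 scale was inferred from the value range. Medians of the deposited arrays ran from 4.62 to 4.76, so they do not share 1 distribution; between-array scaling can hide a shift common to most genes. Of 53617 rows, 16098 had 1 gene symbol, updated by gene ID to RefSeq (GRCh38.p14); sources used here name no genome build for the array. The row of highest mean stood for a gene. Each named row was fitted with limma 3.58.1 (R 4.3.3; lmFit, eBayes, no covariates), with Benjamini-Hochberg adjustment over 16098 rows and a threshold of 0.05; the fit was checked on simulated data. All members are named; per-clone values are given for members that passed and for the largest difference in each class. For KDM6B they were added after its values were seen. Members, lists and tests were chosen with earlier results of these data known. Enzyme classes follow textbook roles. Arrays have no read depth; 5 clones per group limit precision. Alternatives were other scalings, filters, weights and priors, averaged rows, left-out clones, a lowess span correction (smoother 0.3) and a clone-number block.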

Additional observations from a re-analysis of the deposited data

Results flagged for a closer look

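In 90 groups of 5 clones (KDM5D left out), 10 clones stood apart, with a gap to the next clone of over 0.71 of the group's range, where chance gives about 1 in 20 groups at each look. Control 2 was the lowest control in 6 of the 10: KDM3A (5.59), KDM5A (5.07), KMT5A (6.87), SETD2 (5.87), SETD5 (6.92) and SUV39H2 (3.23). The others were KMT5A in CENPU 4 (6.46, lowest), KDM5C in CENPU 5 (6.57, lowest), KDM4E in control 4 (4.44, highest) and KDM6B in control 3 (7.98, highest). Control 2 also had the lowest correlation of span with deviation, -0.355, and its part in these values was not tested. Of these genes KDM5A alone passed, and without control 2 its difference was 0.88 and did not pass in limma.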

How the results depend on the processing

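None of the 11 members that passed changed sign under the 20 alternatives. Over the fits without 1 clone, 1 to 16 members were higher and 1 to 5 lower. Higher members numbered 11 with array weights and 2 after median centring, where 8.75% and 3.93% of all genes were higher. Without control 2, CENPU 7 and CENPU 13, 1 was higher and 3 lower (all genes 1.40% and 1.75%), and the medians were 0.06 (methyltransferases) and 0.08 (demethylases); the demethylase median was 0.18 with the span trend removed. Clone numbers 1, 4 and 5 occur in both groups, and the labels give no pairing. Deviations of same-numbered clones correlated at -0.375, 0.104 and 0.0249. So few correlations cannot show whether these clones share a batch or only a number. With the replicate block over these 6 clones, 0 members were higher and 0 lower in limma (5 and 5 at an unadjusted p under 0.05) and the demethylase median was 0.11; this fit has fewer clones. Signs turned only in members that did not pass: EHMT2 (-0.05) and KDM2B (-0.07) after quantile normalization; KDM2A (-0.04), KDM2B (-0.12) and KDM4B (-0.04) with the span trend removed; EZH2 (-0.09), KDM2A (-0.04), KDM2B (-0.000605), SETD7 (-0.05), SMYD1 (0.04) and SMYD5 (0.04) without the 3 clones; and EZH2 (-0.09), KDM2A (-0.04), KDM2B (-0.04), KDM4D (-0.01), KDM5C (0.05), NSD2 (-0.07), SETD7 (-0.06), SMYD1 (0.04) and SMYD5 (0.12) in the block. Without 1 clone, EHMT2 ranged from -0.05 to 0.06, KDM2B from -0.04 to 0.07, KDM5C from -0.03 to 0.04 and KDM5D from -0.000883 to 0.08. The cause was not tested.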
